A study of Mus musculus with 9 samples.

Results

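The genes described here are 6 SREBP2 targets of cholesterol synthesis and its feedback: Hmgcs1, Insig1, Idi1, Fdft1, Sqle and Cyp51. They were picked by symbol, with their course in these data, higher at 1 h and lower by 12 h, already known. Of the 6 genes, 5 had a row among the 6462 genes of the deposited table, and all 5 passed the filter on level that kept 5643 genes for testing. Sqle, which encodes squalene epoxidase, had no row and was not analysed here. RNA was sequenced in BV2 cells, an immortalized line derived from mouse microglia, that were untreated (0 h) or exposed for 1 h or 12 h to LPS, bacterial lipopolysaccharide, at 200 ng/ml. Each group had 3 libraries, made from total RNA with a stranded mRNA kit. Untreated cells were sampled at 0 h only, so exposure to LPS and time in culture cannot be told apart, and all values come from a single cell line.

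Cholesterol is built from acetyl-CoA through mevalonate, isoprenoid units, squalene and lanosterol. The transcription factor SREBP2 turns on the genes of this route and of sterol uptake. When sterols are plentiful in the endoplasmic reticulum, SREBP2 is held there by its escort SCAP bound to an INSIG protein. When sterols fall, the complex moves to the Golgi, where SREBP2 is cut and its active part goes to the nucleus. Insig1 is itself a target of this factor, which makes it both a readout and a brake of the route. Macrophages and microglia are known to alter their sterol metabolism when Toll-like receptors are engaged.

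Promoters of 4 of the 5 measured genes were found in RefSeq tables, and they are shown as a description of these genes. Each covers 250 bases before to 50 after the annotated start of the gene in RefSeq (build GRCm38.p6), 5′ to 3′ on the strand of the gene. Capitals mark the letters of the sterol regulatory element, TCACNCCAC, and of the NF-Y box, CCAAT, on either strand.
Hmgcs1, chr13:119690101-119690400, plus strand: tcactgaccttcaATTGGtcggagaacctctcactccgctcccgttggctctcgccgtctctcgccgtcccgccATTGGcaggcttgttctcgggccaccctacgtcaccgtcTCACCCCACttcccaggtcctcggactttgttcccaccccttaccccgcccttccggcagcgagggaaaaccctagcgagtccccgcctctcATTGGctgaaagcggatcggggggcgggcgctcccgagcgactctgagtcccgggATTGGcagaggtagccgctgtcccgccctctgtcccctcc
Insig1, chr5:28071162-28071461, plus strand: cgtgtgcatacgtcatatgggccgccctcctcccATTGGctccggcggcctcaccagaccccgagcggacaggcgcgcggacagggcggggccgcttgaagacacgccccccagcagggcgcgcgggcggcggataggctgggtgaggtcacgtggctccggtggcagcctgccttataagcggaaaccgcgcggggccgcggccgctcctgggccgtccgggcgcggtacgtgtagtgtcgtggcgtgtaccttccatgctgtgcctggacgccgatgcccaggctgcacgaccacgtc
Idi1, chr13:8885356-8885655, plus strand: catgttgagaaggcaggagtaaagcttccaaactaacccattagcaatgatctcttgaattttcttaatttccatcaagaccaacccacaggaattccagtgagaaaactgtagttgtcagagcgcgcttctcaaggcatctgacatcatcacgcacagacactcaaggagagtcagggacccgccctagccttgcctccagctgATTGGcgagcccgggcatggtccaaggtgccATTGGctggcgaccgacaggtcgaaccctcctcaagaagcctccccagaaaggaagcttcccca
Cyp51, chr5:4104648-4104947, minus strand: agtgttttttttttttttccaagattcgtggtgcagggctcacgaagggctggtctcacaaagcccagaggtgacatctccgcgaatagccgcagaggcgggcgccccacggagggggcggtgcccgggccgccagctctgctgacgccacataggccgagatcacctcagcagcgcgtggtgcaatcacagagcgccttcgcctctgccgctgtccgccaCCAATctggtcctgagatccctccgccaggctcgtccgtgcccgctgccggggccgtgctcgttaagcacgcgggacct

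The Hmgcs1 promoter held 1 match to the sterol regulatory element, TCACCCCAC, whose first base lies at position -137 from the start. This motif, with any base at N, was found in 408 of 32851 promoters of this length in the table, or 1.24%. The windows of Insig1, Idi1 and Cyp51 held no match to these letters, which says nothing about variants of the element or about sites outside the window. NF-Y is a factor that binds beside SREBP at many sterol genes. Its box was present in 4 of 4 promoters, against 37.4% of all promoters, with 4 copies in Hmgcs1, 2 in Idi1 and 1 each in Insig1 and Cyp51. The Sp1 box, GGGCGG on either strand, was also present in 4 of 4, against 35.7% of all promoters. Of the 6 other sterol synthesis enzymes with a promoter in the table, 6 held the NF-Y box in at least 1 window and 0 held the sterol element. Both boxes were also common in the other gene lists described below. NF-Y was found in 6 of 8 uptake, transport and feedback genes, 6 of 9 for fatty acid synthesis and 4 of 7 for oxysterols and LXR. It was also found in 3 of 5 of the isoprenoid branch and 4 of 6 microglia and macrophage markers. Sp1 was found in 7 of 8, 5 of 9, 6 of 7, 3 of 5 and 2 of 6 of these. The list counts take any window of a gene, while the shares of all promoters count single windows. These matches describe the letters of the windows and were not tested against any measurement.

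The libraries were similar in depth and within groups. Steps in the lowest values gave relative depths from 0.9056 to 1.056 and a rough depth of 22500000 fragments per library (quartiles 18200000 and 25500000, from 6 genes with a single transcript). Correlations of log2(FPKM + 1) across 5643 genes ran from 0.9981 to 0.9986 within groups and from 0.9241 to 0.9698 between them. Of 15 microglia and macrophage markers, 10 had a row and none of these was at 0 in any library. Aif1, Tmem119, Ptprc and Sall1 were among those with no row, and none was listed of 16 markers of neurons, astrocytes, oligodendrocytes and vessel cells. The table lists only genes selected for a difference among these libraries, so a missing row says nothing about a gene's level. Per library, the 10 markers summed to between 1287 and 1385 FPKM without LPS, between 1235 and 1269 FPKM at 1 h, and between 1158 and 1212 FPKM at 12 h, so the groups did not overlap. Tyrobp and Cd68 made up most of this sum. Tyrobp averaged 559.8 FPKM without LPS, 545.1 at 1 h and 412.3 at 12 h, and Cd68 390.6, 367.8 and 390.9. Cd68 depended on the scaling: under quantile normalization it was lower at 12 h than in untreated cells, with a log2 difference of -0.20 (adjusted p = 3.46e-06). The markers did not move as one: at 12 h, 3 of the 9 tested were higher than in untreated cells and 5 lower, with Itgam at 2.52-fold and Adgre1 at 1.70-fold on one side and Trem2 at 0.525-fold and Tyrobp at 0.736-fold on the other. Of all tested genes, 41.1% were higher and 40.6% lower at 12 h, and 24.1% and 34.9% at 1 h. At 1 h, 1 of the markers was higher and 7 were lower. The part of this shift in the results below was not tested.

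Within 1 h of LPS, all 5 measured targets were higher than in untreated cells. Insig1 changed most, with a mean 1.9-fold that of untreated cells, followed by Hmgcs1 at 1.47-fold, Idi1 at 1.34-fold, Cyp51 at 1.33-fold and Fdft1 at 1.19-fold. By 12 h, Hmgcs1, Insig1, Cyp51 and, narrowly, Idi1 had fallen below untreated cells, and Fdft1 did not pass the test. The 5 genes together summed to 121.5 ± 0.71 FPKM in untreated cells, 191.4 ± 6.86 at 1 h and 100.4 ± 5.1 at 12 h (SD, n = 3, as throughout). In such bulk samples, fewer cells with a transcript and less of it per cell cannot be told apart. FPKM is a fragment count scaled to transcript length and library depth, so levels can be compared between genes.

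**Figure D1:**
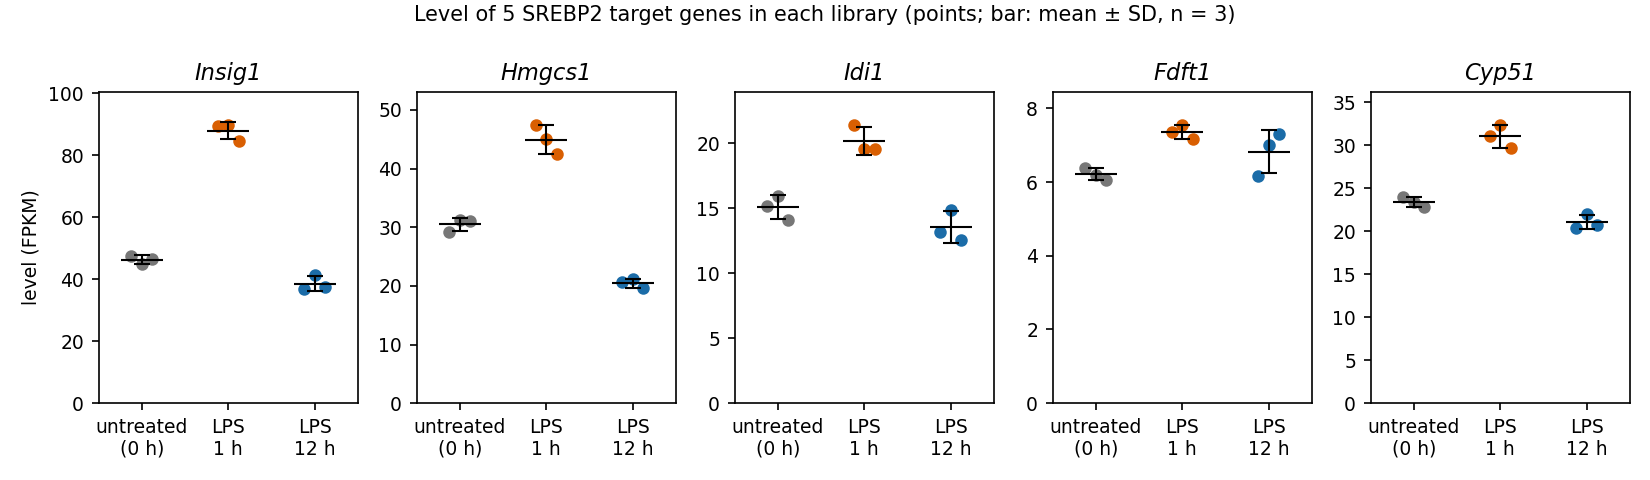
Level in FPKM (vertical axes, each from 0) of Insig1, Hmgcs1, Idi1, Fdft1 and Cyp51 in every library of untreated cells and of cells at 1 h and 12 h of LPS, with bars for the mean ± SD of 3 libraries. In each panel the 1 h libraries are above all untreated ones, and the 12 h libraries of Insig1, Hmgcs1 and Cyp51 are below all untreated ones. How many of all tested genes separate in this way was not counted.

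Insig1, which encodes the protein that retains SREBP2 and its escort in the endoplasmic reticulum, had the highest level of the 5 genes in every group. It stood at 47.5, 44.9 and 46.6 FPKM in untreated libraries, 89.3, 89.6 and 84.7 FPKM at 1 h, and 36.9, 41.4 and 37.4 FPKM at 12 h. No group overlapped another, and the 12 h libraries were the lowest. The difference in log2(FPKM + 1) between 1 h and untreated cells was 0.91 ± 0.042 (SE; 95% interval 0.82 to 1.0; adjusted p = 1.98e-10). Between 12 h and untreated cells it was -0.26 ± 0.042 (adjusted p = 4.59e-05), and between 12 h and 1 h it was -1.17 ± 0.042 (adjusted p = 5.82e-12). Differences given below as a rise, as higher or as lower are on this log2 scale. At 12 h the mean level was 0.439-fold that at 1 h and 0.832-fold that of untreated cells.

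Hmgcs1, the cytosolic synthase that makes HMG-CoA at the entry to the mevalonate route, had 29.1, 31.2 and 31.1 FPKM in untreated libraries, 47.4, 44.96 and 42.4 FPKM at 1 h, and 20.7, 21.1 and 19.6 FPKM at 12 h. Again the 3 groups did not overlap, and every 12 h library was below every untreated one. Hmgcs1 rose by 0.54 ± 0.044 at 1 h (adjusted p = 1.33e-07). It was lower at 12 h than in untreated cells by a log2 difference of -0.55 ± 0.044 (adjusted p = 3.04e-08), the largest fall below untreated cells among the 5 genes. The 95% interval of that difference, -0.65 to -0.46, did not overlap that of Insig1, -0.35 to -0.17; the difference between the genes was not itself tested. From 12 h against 1 h the log2 difference was -1.10 ± 0.044 (adjusted p = 1.94e-11), with a mean of 20.4 ± 0.779 FPKM at 12 h and 44.9 ± 2.47 FPKM at 1 h.

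Idi1 encodes the isomerase that interconverts the first isoprenoid units. Its libraries had 15.2, 15.9 and 14.1 FPKM when untreated, 21.4, 19.5 and 19.6 FPKM at 1 h, and 13.2, 14.9 and 12.5 FPKM at 12 h. The 1 h libraries stood above all others, while the 12 h and untreated libraries overlapped. Idi1 rose by 0.40 ± 0.060 at 1 h (adjusted p = 6.4e-05), and at 12 h it was below the 1 h level by a log2 difference of -0.54 ± 0.060 (adjusted p = 1.01e-06). Against untreated cells the 12 h difference of -0.15 ± 0.060 passed narrowly (adjusted p = 0.033). That call was lost under 3 other settings and without any of 4 single libraries, with adjusted p = 0.155 and a difference of -0.10 without 12 h library 3.

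Fdft1 encodes squalene synthase, the first enzyme committed to sterols, and had the lowest level of the 5 genes. The untreated libraries had 6.37, 6.20 and 6.06 FPKM, those at 1 h had 7.37, 7.54 and 7.17 FPKM, and those at 12 h had 6.17, 7.02 and 7.30 FPKM. All 1 h libraries were above the untreated ones, and the 12 h libraries spread across both ranges. Fdft1 rose by 0.21 ± 0.054 at 1 h (adjusted p = 0.00382). Neither 12 h comparison passed: the difference was 0.12 ± 0.054 from untreated cells (95% interval 0.00032 to 0.23, adjusted p = 0.0597) and -0.10 ± 0.054 from 1 h (95% interval -0.21 to 0.019, adjusted p = 0.105). Leaving out 12 h library 1, the lowest, gave 0.18 from untreated cells (adjusted p = 0.00532), and leaving out 12 h library 3, the highest, gave -0.14 from 1 h (adjusted p = 0.0335).

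Cyp51 encodes lanosterol demethylase, which takes the first sterol of the route towards cholesterol. It had 24.0, 23.4 and 22.8 FPKM in untreated libraries, 31.1, 32.3 and 29.7 FPKM at 1 h, and 20.4, 22.0 and 20.8 FPKM at 12 h. The groups were separate, with the 12 h libraries lowest by a small margin. Cyp51 rose by 0.39 ± 0.040 at 1 h (adjusted p = 1.46e-06), and was lower by a log2 difference of -0.15 ± 0.040 at 12 h than in untreated cells (adjusted p = 0.00397) and by a log2 difference of -0.54 ± 0.040 than at 1 h (adjusted p = 1.57e-08).

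**Figure D2:**
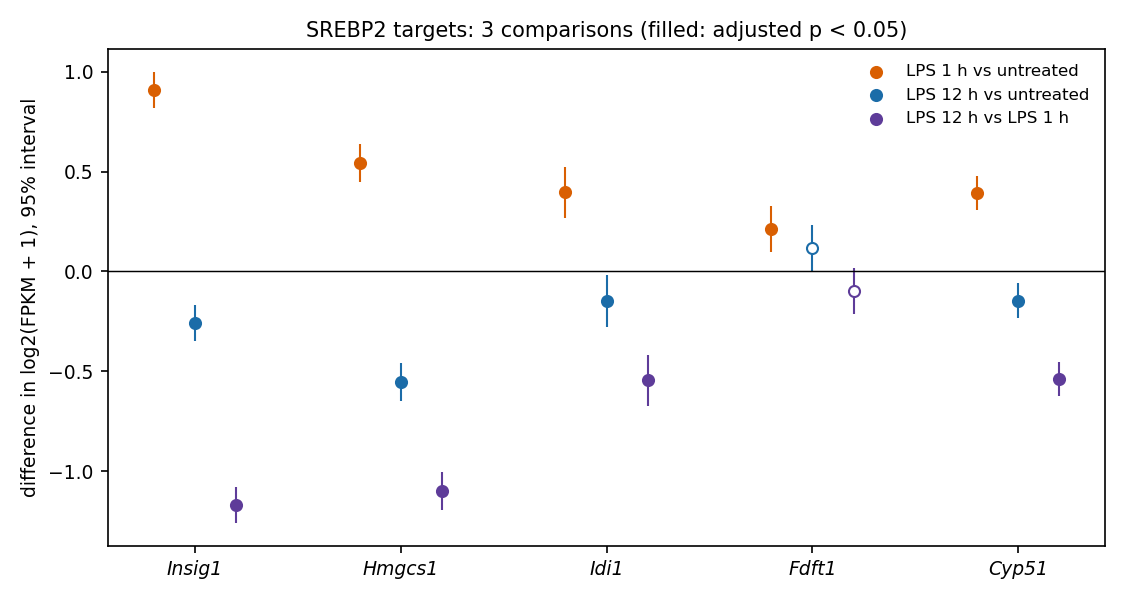
Difference in log2(FPKM + 1) with its 95% interval for Insig1, Hmgcs1, Idi1, Fdft1 and Cyp51 in 3 comparisons, LPS 1 h against untreated, LPS 12 h against untreated and LPS 12 h against LPS 1 h; filled points passed an adjusted p of 0.05. All 1 h points are above 0, from 0.21 for Fdft1 to 0.91 for Insig1, and the 12 h points against untreated cells are below 0 except that of Fdft1.

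The counts over these genes stand against a table whose genes the authors had selected for a difference among the same libraries. How many of all tested genes had groups that do not overlap was not counted, so the separations above describe single genes only. At 1 h, 5 of 5 were higher than in untreated cells, where 24.1% of the 5643 tested genes were higher and 34.9% lower. At 12 h, 4 of 5 were lower than in untreated cells and 0 higher, where 40.6% of tested genes were lower and 41.1% higher. This count depends on the setting: the lower call of Idi1 held under 13 of 20 alternatives. Under quantile normalization that call was lost and Fdft1 was higher at 12 h (0.19, adjusted p = 0.00541). Against 1 h, 4 of 5 were lower at 12 h, where 43.6% of tested genes were lower and 41.9% higher. The median log2 difference of the 5 genes was 0.40 at 1 h and -0.15 at 12 h against untreated cells, and -0.54 for 12 h against 1 h. Over all tested genes the medians were -0.03, 0.03 and 0.0065. The comparisons share libraries, so a gene that was high at 1 h enters both 1 h comparisons, and the genes had been picked with this time course known.

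The order of levels among the 5 genes was Insig1, Hmgcs1, Cyp51, Idi1 and Fdft1 in untreated cells and at 1 h, with no overlap between neighbours. At 12 h, Cyp51 averaged 21.1 ± 0.809 FPKM and Hmgcs1 20.4 ± 0.779 FPKM, and their libraries overlapped. The standardized profile of each gene over the 9 libraries was compared with the mean of the other 4 as a description. Pearson's r was 0.985 for Cyp51, 0.984 for Insig1, 0.945 for Idi1, 0.872 for Hmgcs1 and 0.542 for Fdft1. The 9 points of each value share the same libraries and fall into 3 time groups.

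Other enzymes of the route came from a list of 15, of which 8 had a row and all 8 were tested. At 1 h, 5 of 8 were higher than in untreated cells and 0 lower, with a median log2 difference of 0.19, or 0.11 under quantile normalization. At 12 h the 8 divided evenly, with 4 higher and 4 lower than untreated cells and a median of 0.07, which became -0.04 under quantile normalization and -0.20 among genes of at least 5 FPKM. Against 1 h, 2 were higher and 4 lower at 12 h, with a median of -0.13, or -0.27 among genes of at least 5 FPKM. The shares of all tested genes were 24.1% higher and 34.9% lower at 1 h, and 41.1% and 40.6% at 12 h. For 12 h against 1 h they were 41.9% and 43.6%.

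Sc5d, which acts late in the route, was highest at 1 h and lowest at 12 h, as was Hmgcs1, with log2 differences of 0.15 at 1 h (adjusted p = 0.0115) and -0.20 after 12 h (adjusted p = 0.000742) from untreated cells. The 1 h call for Sc5d was lost without 1 h library 1 (0.11, adjusted p = 0.0645).

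Several enzymes stayed high or were higher still at 12 h. Fdps, which makes farnesyl diphosphate, averaged 97.8 ± 3.1 FPKM in untreated cells, 114.6 ± 2.44 at 1 h and 124.6 ± 3.47 at 12 h, and it was higher than in untreated cells by 0.23 at 1 h (adjusted p = 3.3e-05) and 0.35 after 12 h (adjusted p = 1.3e-07). Its further rise from 1 h, 0.12 (adjusted p = 0.00288), was lost under quantile normalization (0.04, adjusted p = 0.185). Msmo1, a methyl oxidase that acts after Cyp51, averaged 72.1 ± 0.725, 94.4 ± 4.26 and 94.9 ± 2.87 FPKM at 0 h, 1 h and 12 h. Its differences from untreated cells were 0.38 at 1 h (adjusted p = 3.9e-07) and 0.39 after 12 h (adjusted p = 8.31e-08). Hsd17b7, a keto reductase of the same block of steps, averaged 3.18 ± 0.11, 4.38 ± 0.133 and 4.73 ± 0.303 FPKM. It was higher by 0.37 at 1 h (adjusted p = 4.04e-05) and 0.46 after 12 h (adjusted p = 1.41e-06).

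Lss, which closes squalene epoxide into lanosterol, did not pass at 1 h, with 11.3 ± 0.724 FPKM at 1 h and 11.8 ± 0.365 FPKM in untreated cells (adjusted p = 0.252). At 12 h it averaged 16.0 ± 0.456 FPKM and was higher than in untreated cells by 0.41 (adjusted p = 1.31e-06). Pmvk, a mevalonate route kinase, and Dhcr7, a reductase of the last steps, likewise did not pass at 1 h, with differences of 0.02 (adjusted p = 0.79) and -0.03 (adjusted p = 0.469). At 12 h both were lower than in untreated cells, Pmvk by a log2 difference of -0.35 (adjusted p = 1.29e-05) and Dhcr7 by a log2 difference of -0.31 (adjusted p = 2.32e-06). Neighbours along the route thus differed in direction at 12 h: Fdps and Lss were above untreated cells, and Idi1 and Cyp51 below them. The Idi1 call was narrow, with overlapping libraries, and held under 13 of 20 alternatives.

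**Figure D3:**
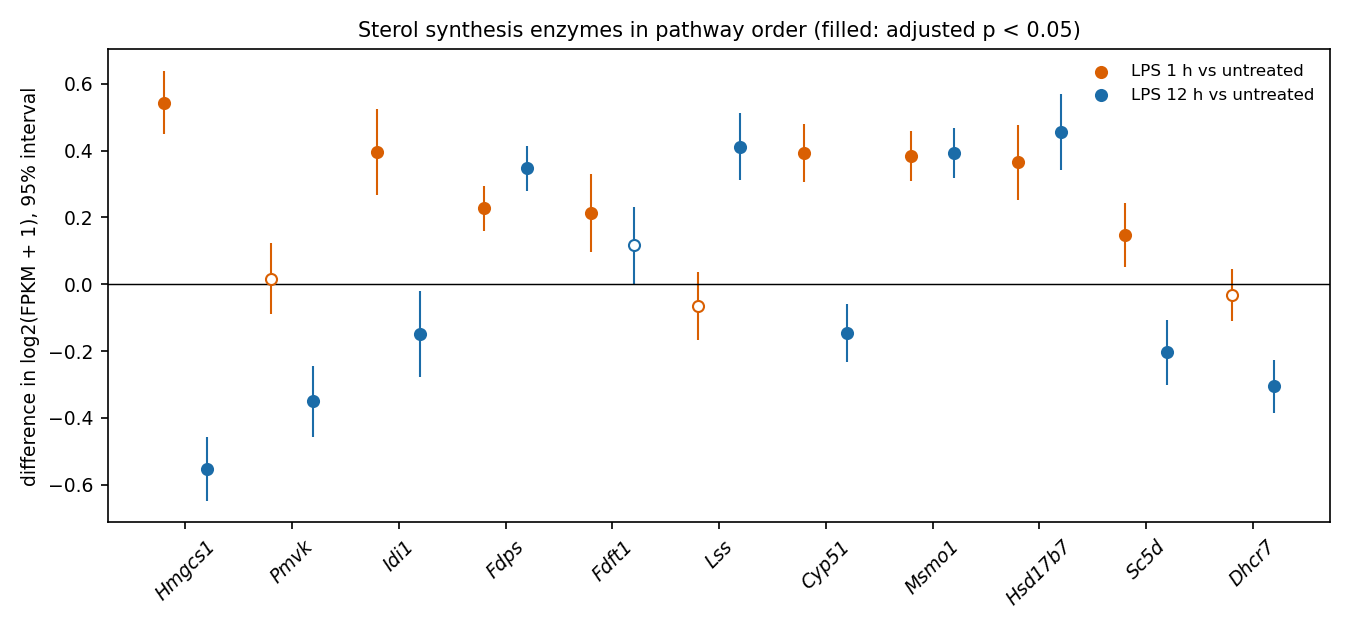
Difference in log2(FPKM + 1) from untreated cells with its 95% interval at 1 h (orange) and 12 h (blue) of LPS for 11 enzymes of sterol synthesis, ordered along the route from Hmgcs1 to Dhcr7; filled points passed an adjusted p of 0.05. At 1 h, 8 of the 11 were higher, and at 12 h, Fdps, Lss, Msmo1 and Hsd17b7 were above untreated cells while Hmgcs1, Pmvk, Idi1, Cyp51, Sc5d and Dhcr7 were below. The 12 h libraries of Idi1 overlapped the untreated ones. The 8 include Hmgcs1, Idi1, Fdft1 and Cyp51, which were picked with their rise at 1 h known. Of all tested genes, 24.1% were higher at 1 h.

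Genes of sterol uptake, transport and feedback came from a list of 22, of which 15 had a row and were tested. At 1 h, 6 genes exceeded untreated cells and 7 were lower, with a median of -0.10, which became -0.029 among genes of at least 5 FPKM and -0.056 under quantile normalization. At 12 h, 7 genes exceeded untreated cells and 4 were lower (median 0.09), and against 1 h, 8 were higher and 5 lower (median 0.09). The shares higher and lower among all tested genes were 24.1% and 34.9% at 1 h and 41.1% and 40.6% at 12 h. For 12 h against 1 h they were 41.9% and 43.6%. The 12 h median against untreated cells was 0.045 without 12 h library 3.

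Mylip, which encodes a ubiquitin ligase that limits lipoprotein uptake, was lower at both times. It averaged 6.93 ± 0.236 FPKM in untreated cells, 3.11 ± 0.453 at 1 h and 2.76 ± 0.0423 at 12 h, and was lower than in untreated cells by a log2 difference of -0.95 at 1 h (adjusted p = 3.57e-08) and -1.08 after 12 h (adjusted p = 2.49e-09). Srebf2, the gene of SREBP2 itself, had 39.5, 38.8 and 39.9 FPKM in untreated libraries, 46.4, 48.7 and 47.8 FPKM at 1 h, and 39.4, 40.6 and 39.6 FPKM at 12 h. It rose by 0.27 ± 0.031 at 1 h (adjusted p = 5.29e-06). At 12 h its difference from untreated cells was 0.02 ± 0.031 (adjusted p = 0.643), which turned to -0.08 and passed under quantile normalization (adjusted p = 0.0222).

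At 12 h, Lrp1, a large lipoprotein receptor, was lower than in untreated cells by a log2 difference of -0.62 (adjusted p = 6.38e-10), and Gramd1b, which carries cholesterol from the plasma membrane to the endoplasmic reticulum, was higher by 0.44 (adjusted p = 3.22e-07). Stard4, a soluble sterol carrier, was lower at 12 h than at 1 h by a log2 difference of -0.62 (adjusted p = 7.25e-09), with 8.69 ± 0.508 FPKM at 12 h and 13.8 ± 0.0425 FPKM at 1 h. The lysosomal cholesterol exporters Npc1 and Npc2 were higher at 12 h than at 1 h by 0.45 (adjusted p = 1.6e-07) and 0.45 (adjusted p = 2.9e-09).

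**Figure D4:**
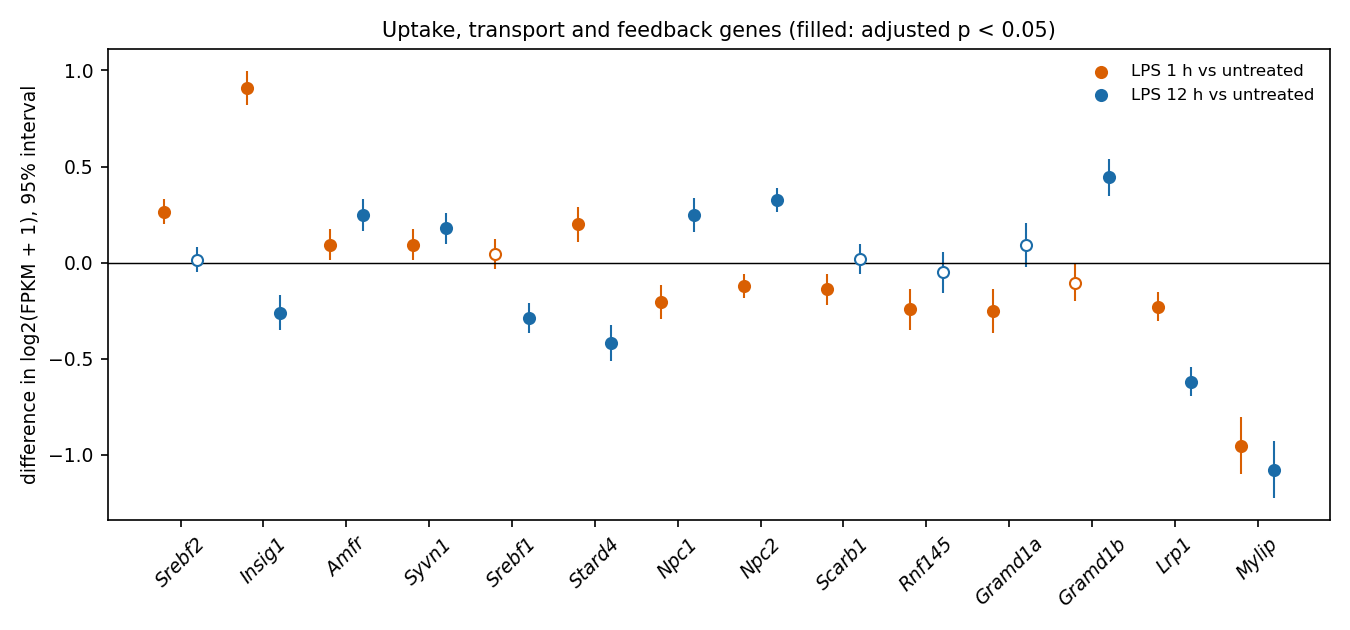
Difference in log2(FPKM + 1) from untreated cells with its 95% interval at 1 h (orange) and 12 h (blue) of LPS for Insig1 and 13 genes of sterol uptake, transport and feedback; filled points passed an adjusted p of 0.05. Insig1 lies on opposite sides of 0 at 1 h and 12 h, and Mylip is below -0.9 at both.

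Fatty acid synthesis, which the related factor SREBP1 drives, was followed with a list of 18 genes, of which 10 had a row and were tested. At 1 h, 3 genes exceeded untreated cells and 4 were lower (median -0.01), at 12 h, 3 were higher and 5 lower (median -0.12), and against 1 h, 3 were higher and 5 lower at 12 h (median -0.07). Among all tested genes, 24.1% were higher and 34.9% lower at 1 h, and 41.1% and 40.6% at 12 h. For 12 h against 1 h the shares were 41.9% and 43.6%. Under quantile normalization, 1 gene rather than 3 was higher at 1 h. These medians had no steady size: over all alternatives they ran from -0.053 to 0.009 at 1 h, changing sign without untreated library 2 or without 1 h library 2, and from -0.24 (quantile normalization) to 0.02 (genes of at least 5 FPKM) at 12 h against untreated cells. Against 1 h they ran from -0.14 to -0.034 under the same pair of settings. Fasn, the fatty acid synthase, was highest at 1 h and lowest at 12 h, as were Insig1, Hmgcs1 and Cyp51: it averaged 46.2 ± 0.554 FPKM in untreated cells, 58.5 ± 0.929 at 1 h and 38.4 ± 1.2 at 12 h, and it was higher at 1 h than without LPS by 0.33 (adjusted p = 6.01e-07). For 12 h against 1 h the log2 difference was -0.59 (adjusted p = 3.53e-10). Lpin1, a phosphatidate phosphatase, was lower than in untreated cells at both times, by a log2 difference of -0.40 at 1 h (adjusted p = 4.45e-05) and -0.91 after 12 h (adjusted p = 2.58e-09). Scd2, a desaturase, was lower by a log2 difference of -0.34 at 1 h (adjusted p = 8.9e-08) and -0.45 after 12 h (adjusted p = 1.2e-09). Me1, which supplies NADPH, was lower at 1 h than in untreated cells by a log2 difference of -0.34 (adjusted p = 1.34e-06) and was higher at 12 h than at 1 h by 0.65 (adjusted p = 3.64e-10).

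Oxysterols and their receptor LXR form the opposing arm, which exports and stores sterols. Of 17 listed genes, 10 had a row and were tested. At 1 h, 0 genes exceeded untreated cells and 6 were lower (median -0.20), at 12 h, 2 were higher and 7 lower (median -0.32), and against 1 h, 4 were higher and 5 lower at 12 h (median -0.01). Among all tested genes, 24.1% were higher and 34.9% lower at 1 h, and 41.1% and 40.6% at 12 h. For 12 h against 1 h the shares were 41.9% and 43.6%. Under quantile normalization, 2 listed genes were higher at 1 h, and among listed genes of at least 5 FPKM 1 was higher at 12 h than in untreated cells. The lower call of Soat1 at 12 h (-0.07, adjusted p = 0.04998) stood at the threshold and was lost under most alternatives. Its adjusted p was 0.0632 with median-of-ratios scaling and 0.0906 with eBayes without trend. For 12 h against 1 h, 3 rather than 5 genes were lower under quantile normalization, with adjustment over 21878 genes, and without 1 h library 3. The calls lost there were those of Abcg1 (-0.13, adjusted p = 0.0172, and 0.0887 without that library) and Cyp27a1 (-0.14, adjusted p = 0.0136, and 0.0501 without that library). The median of that comparison ran from -0.13 to 0.0064 over all alternatives, with a change of sign without 1 h library 2 or without 12 h library 2. Abcg1, which exports cholesterol, was lower at 1 h by a log2 difference of -0.45 (adjusted p = 1.46e-06), with 10.4 ± 0.513 FPKM at 1 h and 14.5 ± 0.271 FPKM in untreated cells. Hsd3b7, an enzyme of bile acid and oxysterol turnover, was lower by a log2 difference of -0.51 at 1 h (adjusted p = 2.18e-06). At 12 h the largest changes from untreated cells were those of Soat2, which esterifies cholesterol, higher by 1.43 (adjusted p = 3.28e-11), and Apoe, a lipid carrier, lower by a log2 difference of -1.18 (adjusted p = 2.89e-12). Plin2, which coats lipid droplets, was higher by 0.93 (adjusted p = 8.32e-12), and Lipa, the lysosomal lipase that frees cholesterol from its esters, was lower by a log2 difference of -0.83 (adjusted p = 4.89e-11). Soat2 was a gene of low level, with 1.42 ± 0.0735 FPKM in untreated cells and 5.51 ± 0.168 at 12 h. Soat1 averaged 73.2 ± 1.41 and 69.6 ± 2.47 FPKM in the same groups.

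Genes with a time course most like that of the sterol targets were ranked by Pearson's r with the mean standardized profile of the 5 genes over the 9 libraries, among 2091 other tested genes whose group means spanned at least 0.5 on the log2 scale. Among the 10 highest were Fam133b (0.9887), Kcnj2 (0.9861), Dyrk2 (0.9857), Ccnl1 (0.9838), 2810474O19Rik (0.9832), Stil (0.9813), Rasgef1b (0.9807), Rgs1 (0.9803) and D17H6S56E-5 (0.9795). The potassium channel gene Kcnj2 had 10.9 ± 0.37 FPKM in untreated cells, 30.8 ± 0.401 at 1 h and 8.53 ± 0.718 at 12 h. Rgs1, a regulator of G protein signaling, averaged 12.2 ± 0.428, 35.2 ± 0.629 and 7.98 ± 0.225 FPKM in the same groups. These values are descriptions over libraries that fall into 3 groups.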

How the data were processed

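FPKM in 9 BV2 libraries, grouped by their labels, were analysed. The authors deposited 1 table of FPKM per gene and library, without read counts. The submitters' processing notes give HISAT2, HTSeq, Cufflinks, Trimmomatic and DESeq as tools, with no version, and GRCh38, a human build, although the genes carry mouse identifiers, so no gene position was taken from that build. A p-value, a q-value, a score that ranks genes and a flag stand beside them per the file headers. No deposited q-value exceeds 0.0999 and each flag is 1, so genes had been selected on these samples, and adjusted p-values give no false discovery rate over the transcriptome. These columns made no calls here.

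Genes with a mean of at least 1 FPKM (5643 kept, 819 left out) were analysed as log2(FPKM + 1), which understates differences of low genes. The test was limma 3.58.1 in R 4.3.3, with 1 mean per group over 9 libraries, eBayes with trend, two-sided tests and Benjamini-Hochberg adjustment over all tested genes, called at 0.05. It was tried on simulated data in which far fewer genes changed than were called here, so that check does not cover data like these. Because the labels do not name separate cultures, p-values reflect spread between libraries, which may be technical. The members and lists were chosen with earlier results of these data known. Named were the members, all measured enzymes of the route, at most 4 genes of each further list by size of the difference in the comparison described, and the 10 genes most like the members. A gene so named that is given in a further comparison was chosen there after its values were seen. Some genes that this rule names are not reported here. Depth was estimated from 41 genes of at most 0.5 FPKM, selected for stepwise values, where 90.9% of 187 values lay within 5% of a whole multiple of a step. Promoters were matched by gene ID with Python 3.11.15. Pseudocounts, filters, scalings, spread estimates, adjustment totals, a block on library number and omission of single libraries were varied.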

Additional observations from a re-analysis of the deposited data

How the results depend on the processing

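Gene differences, counts of called genes and list medians were recomputed under 20 alternatives: 2 pseudocounts (0.5 and 0.1), no filter or one at 5 FPKM, scaling by quantiles or by median of ratios, array weights, eBayes with no trend, only the 6 libraries compared, a library block, adjustment over 21878 genes (the total implied by the deposited ranks), and omission of each of 9 libraries. Of 300 recomputed member values, 289 kept their direction and side of the threshold, and none reversed. Idi1 at 12 h against untreated cells was lost with no filter (-0.15, adjusted p = 0.0575), under quantile normalization (-0.14, adjusted p = 0.0535) and with the implied genes (-0.15, adjusted p = 0.128), the last by the larger number of tests; without single libraries it ran from -0.21 to -0.10, and was lost without untreated libraries 1 or 2 or 12 h libraries 1 or 3. Fdft1 against untreated cells passed at 12 h under quantile normalization (0.19, adjusted p = 0.00541) and ran from 0.073 to 0.18 without single libraries; against 1 h it passed with array weights (-0.13, adjusted p = 0.0338) and ran from -0.14 to -0.036. Apart from fewer libraries or more tests, the cause was not tested. All 120 recomputed counts of genes called over the table and 586 of 600 list counts stayed within 1.5 times. Same-numbered libraries did not deviate together (residual correlations of 9 same-numbered pairs from -0.067 to 0.128). With the replicate block, no member's call changed, Insig1 at 1 h kept 0.91 (adjusted p = 6.04e-10), and 1338 genes were higher at 1 h, against 1361 without it. Profile correlations, summed levels, depth and motif counts were computed once. No scaling moved the median of all genes by over 0.1.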

Other observations

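The non-sterol branch of the mevalonate route, which feeds prenylation of proteins and the making of dolichol, was followed with 13 genes, of which 6 had a row and were tested. At 12 h, 5 genes exceeded untreated cells and 1 was lower (median 0.24), where 41.1% and 40.6% of tested genes were called in those directions. Nus1, a subunit of the prenyltransferase that makes dolichol, averaged 46.0 ± 1.67 FPKM at 12 h and 35.5 ± 0.987 FPKM in untreated cells, a log2 difference of 0.36 (adjusted p = 2.02e-07). Rabggta, which prenylates Rab proteins, was higher by 0.28 (adjusted p = 0.000449) and Zmpste24, a protease of prenylated proteins, by 0.27 (adjusted p = 6.04e-06). Pggt1b, a subunit of another prenyltransferase, was lower, with a log2 difference of -0.33 (adjusted p = 1.32e-05). Against 1 h, 5 were higher and 1 lower at 12 h (median 0.21). Of all tested genes, 41.9% were higher and 43.6% lower there, and 24.1% and 34.9% at 1 h against untreated cells. At 1 h, 1 of the 6 was above untreated cells and 1 below (median 0.02, from -0.0053 without untreated library 1 to 0.05 without untreated library 2, and 0.0027 without untreated library 3). The higher call, that of Zmpste24 (0.11, adjusted p = 0.0119), was lost under quantile normalization (0.05, adjusted p = 0.228) and when untreated library 1 was omitted (0.09, adjusted p = 0.0552). The count of lower genes went to 0 with median-of-ratios scaling, with the 6 libraries alone, with the larger adjustment total, and on omission of untreated library 2 or 3 or of 1 h library 1 or 3.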
